A study of Mus musculus with 8 samples.

Results

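Gene deserts are stretches of a chromosome that hold no protein-coding gene over a long distance. Bcl11b binding in such stretches was described in mouse thymocytes, the developing T cells of the thymus. An interval of the deposited peak table was taken as a desert site when its midpoint lay more than 100 kb from the body of every protein-coding gene of the RefSeq annotation of mm10, on chromosomes 1 to 19. The rule used positions only, and it left out 2 windows of chromosome 12 that held 83 further intervals, one around Bcl11b itself and one at the immunoglobulin heavy chain locus. It found 2370 of the 63098 intervals that have a normalised value (3.76%). These 2370 intervals fell into 348 deserts, each the gap between 2 neighbouring protein-coding genes, or between a chromosome end and 1 such gene, and named here by these genes.

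Bcl11b was precipitated from cross-linked, freshly isolated thymocytes with a rabbit antibody, and the DNA was sequenced (ChIP-seq). The 3 wild type libraries came from Bcl11b+/+ thymocytes and the 3 N440K libraries from Bcl11b+/N440K thymocytes, in which 1 allele codes for Bcl11b with an asparagine-to-lysine exchange and the wild type allele is kept. The series compares Bcl11b binding between them. Strain, age, sex and the number of animals are not given in the sources used here, nor whether the antibody binds both forms of the protein alike. Replicates are not said to come from separate animals, and the p-values then cover the spread among libraries alone, which may be technical. Thymocytes are a mixture of stages: fewer cells of a stage and less binding per cell cannot be told apart.

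Bcl11b is a zinc finger protein that progenitors switch on as they commit to the T cell lineage, and that recruits chromatin-modifying complexes to repress some genes and support others. Most sites of such factors lie away from promoters, in enhancers and silencers that reach their genes through folding of the chromosome. Gene deserts next to developmental regulators are known to hold enhancers that act over long distances, so the nearest gene to a desert site need not be the gene it acts on. The genes named beside the intervals are given as landmarks.

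Total counts in all intervals ranged from 1787899 to 2661343 per ChIP library. Values are CPM as the authors deposited them, the number of reads in an interval scaled to library size. The 2 input libraries, both wild type, were not analysed here, and no background level is given beside the signal. Desert intervals were often faint: of 4540 deposited intervals that met the distance rule, the filter on low counts kept 52.2%, against 67.3% of all deposited intervals. Every statement on desert sites therefore covers the 2370 that passed. They held 3.86%, 3.54% and 3.85% of the counts in tested intervals in wild type replicates 1, 2 and 3, and 3.73%, 3.58% and 3.82% in N440K replicates 1, 2 and 3. The mean share was 3.75% ± 0.185 in the wild type and 3.71% ± 0.124 in the N440K libraries (SD, n = 3), a difference within the spread between replicates.

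Promoters of noncoding genes are the places where desert sequence was available, and 46 desert intervals overlapped the promoter windows (250 bases before to 50 after the start) of 44 noncoding genes. A set of 6 short words was searched on both strands in the windows: TGACCA (reported for Bcl11 proteins), TGTGGT (Runx), AGGAAG (Ets), CAGCTG (E-box), AGATAA (known from erythroid and T cell zinc finger factors of the GATA family) and CTTTGA (Tcf and Lef). The stretches below are the shared part of interval and window, taken from RefSeq's GRCm38.p6 (the coordinates are those of mm10) and written 5′ to 3′ on the gene's strand with matched words in capitals. They are shown because the first, the second and the fourth are the 3 called losses with promoter sequence, the third is the neighbour of the second, and the last pair are the promoter intervals with the highest wild type level.
Gm41386, chr15:93712706-93712879, minus strand: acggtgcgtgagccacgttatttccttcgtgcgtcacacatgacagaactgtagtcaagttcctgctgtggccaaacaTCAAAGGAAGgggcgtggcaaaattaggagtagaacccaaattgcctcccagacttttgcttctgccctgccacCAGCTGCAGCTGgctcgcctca
Gm41600, upper, chr17:52304479-52304557, plus strand: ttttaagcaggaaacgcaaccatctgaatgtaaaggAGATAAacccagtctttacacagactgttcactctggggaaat
Gm41600, lower, chr17:52304258-52304387, plus strand: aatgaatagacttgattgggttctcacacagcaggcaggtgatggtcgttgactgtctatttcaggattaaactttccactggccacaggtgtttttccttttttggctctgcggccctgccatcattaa
Gm33323, chr7:129785144-129785344, plus strand: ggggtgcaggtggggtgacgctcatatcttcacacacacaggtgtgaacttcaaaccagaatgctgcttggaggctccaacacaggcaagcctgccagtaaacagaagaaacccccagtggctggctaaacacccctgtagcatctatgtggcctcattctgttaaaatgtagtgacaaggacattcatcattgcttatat
Gm41331, chr15:60141726-60141926, plus strand: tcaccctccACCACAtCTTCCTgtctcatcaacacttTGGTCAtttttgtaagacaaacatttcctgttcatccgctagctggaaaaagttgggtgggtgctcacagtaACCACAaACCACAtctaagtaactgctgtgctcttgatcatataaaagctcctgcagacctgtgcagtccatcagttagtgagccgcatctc
LOC115487176, chr9:61013190-61013390, plus strand: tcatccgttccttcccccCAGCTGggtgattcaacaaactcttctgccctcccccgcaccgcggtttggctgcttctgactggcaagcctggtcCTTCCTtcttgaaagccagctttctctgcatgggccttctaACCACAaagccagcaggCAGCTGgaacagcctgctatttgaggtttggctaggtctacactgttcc

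The Gm41386 stretch carries a Tcf/Lef word that runs into an Ets word, and near its end a doubled E-box. Gm41331, the strongest promoter interval, carries 3 Runx words, an Ets word and the Bcl11 word. The Gm33323 stretch and the lower Gm41600 stretch hold none of the words. Of the 49 desert promoter windows, 28.6% held the Runx word, 44.9% the Ets word, 30.6% the E-box, 16.3% the GATA word, 28.6% the Tcf/Lef word and 14.3% the Bcl11 word. Over all 32851 promoter windows of the same length the shares were 16.8%, 35.4%, 16.3%, 11.2%, 16% and 13.6%. Base composition differed along with them, since the median GC content was 49.3% in the desert windows, 62.3% in the 10861 windows with any tested interval and 52.7% in all windows. In the 10861 windows with a tested interval, 12.1% held the Runx word and 10.5% the Bcl11 word. These shares are a description, and their relation to base composition was not tested.

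Signal at these promoters went different ways. At Gm41386, a noncoding gene between Prickle1 and Adamts20, wild type replicates 1 to 3 had 40.3, 47.3 and 54.9 CPM and N440K replicates 38.8, 26.8 and 18.2 CPM. N440K replicate 1 came close to the lowest wild type library, and the groups did not overlap. The level was 47.5 ± 7.34 against 27.9 ± 10.3 CPM (SD, n = 3), a log2 fold change of -0.79, with an SE of 0.18 (edgeR adjusted p = 0.0106). Gm33323, in the desert of the growth factor receptor gene Fgfr2, had 20.4, 12.4 and 9.87 CPM in the wild type replicates and 8.86, 3.05 and 3.64 CPM in the N440K replicates, all N440K values below all wild type values. Its log2 fold change was -1.38, with an SE of 0.35 (edgeR adjusted p = 0.0256). The strongest promoter interval, at Gm41331, had 68.9 ± 14.7 CPM in the wild type replicates and 76.8 ± 10.4 CPM in the N440K replicates (SD, n = 3; edgeR adjusted p = 0.624), which was within the spread.

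Gm41600 lies in the desert of Satb1, the gene of a chromatin organiser that thymocytes need, and 2 of its intervals could be set side by side. The one farther along the gene's strand had 26.6, 25.5 and 30.0 CPM in the wild type replicates and 13.8, 15.3 and 17.7 CPM in the N440K replicates, with a clear gap between the groups. Its log2 fold change was -0.81, with an SE of 0.21 (edgeR adjusted p = 0.0319). The interval just before it had 50.8 ± 3.34 CPM in the wild type replicates and 44.6 ± 1.61 CPM in the N440K replicates (SD, n = 3), a log2 fold change of -0.18, with an SE of 0.14 (edgeR adjusted p = 0.650). The difference between these neighbours was not tested.

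Desert sites were on the whole weaker than other sites, yet some of the strongest Bcl11b sites lay among them. The median wild type level was 10.02 CPM over desert intervals and 11.9 CPM over all tested intervals, and the means were equal at 15.7 CPM. Of the desert intervals, 66 (2.78%) were among the strongest 1% of all tested intervals by wild type level. Part of this came from 2 short windows of very high counts. On chromosome 17, 8 intervals between positions 39843261 and 39848661, at the 18S ribosomal RNA pseudogene Rn18s-rs5 and the noncoding gene AY036118, had wild type means of 160.5 to 242 CPM, and counts there stopped at 497 or 498 in every library. On chromosome 2, 6 intervals had means of 49.7 to 145 CPM. Without these 14 intervals the strongest 1% still included 54 desert intervals (2.29%), and the mean fell to 14.8 CPM. The 54 still held the site near Pex2 described below, which is no measure of binding. They also held the highest interval at the start of chromosome 9. edgeR and DESeq2 called none of the 14 and limma voom 3, while 11 had an unadjusted p below 0.05 by edgeR. Without wild type replicate 1 the 8 on chromosome 17 were called higher by edgeR, at log2 fold changes of 0.41 to 0.42. With nearly the same raw count in every library there (326 to 333 at the lowest of the 8, 497 or 498 at the highest), these values follow the ratio of library sizes and are no measure of binding. A further 24 intervals at the start of chromosome 9 were kept, with wild type means up to 64.2 CPM, where the strongest 1% began at 60.2 CPM. Their sums were 546, 404 and 444 CPM in the wild type replicates and 500, 531 and 511 CPM in the N440K replicates. The sums were lowest in wild type replicates 2 and 3, the largest libraries. None of the 24 was called by edgeR, and whether they measure binding was not tested.

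Outside those windows several of the strongest desert sites flanked genes with known roles in T cells. The following 10 intervals were singled out after their values were seen. The highest, at chr1:51585034-51585234, 106.7 kb from Nabp1, had 170.4, 147.0 and 147.7 CPM in the wild type replicates and 160.0, 140.9 and 158.2 CPM in the N440K replicates. A site 255.9 kb from Ptprc, the gene of the CD45 phosphatase of T cell receptor signalling, had 135.1, 102.9 and 107.7 CPM in the wild type replicates and 113.0, 115.3 and 122.3 CPM in the N440K replicates. A site in the Satb1 desert had 109.7, 98.8 and 108.2 CPM in the wild type replicates and 116.3, 104.3 and 107.2 CPM in the N440K replicates. In each of these the 2 groups overlapped. The next were 102.8 CPM near Pik3r1, a regulatory subunit of phosphoinositide 3-kinase, 100.1 CPM near Pex2, 93.2 CPM near the growth inhibitor Btg1 and 90.1 CPM near Lef1, a transcription factor of the Wnt pathway. A site in the Sox4 desert had 86.6 CPM, one between Pmepa1 and 1700021F07Rik 84.3 CPM, and one near Tgfbr2, a receptor of transforming growth factor beta, 83.4 CPM, all in wild type. None of the 10 was called by edgeR, DESeq2 or limma voom (1, the Pex2 site, had an unadjusted p below 0.05 by edgeR). Their log2 fold changes ran from -0.02 to 0.24, the upper end at Pex2. The Pex2 site had 125.8, 85.2 and 89.3 CPM in the wild type replicates and 114.6, 127.5 and 107.2 CPM in the N440K replicates. Its raw count was nearly the same in every library, so its values too follow the ratio of library sizes and are no measure of binding.

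Desert sites were gathered in a minority of the deserts. The median desert held 3 intervals and 100 deserts held 1, while 30 deserts with 20 or more held 939 of the 2370. The gap between Satb1 and Kcnh8 and the gap between Prl5a1 and Sox4, a transcription factor gene active in thymocytes, held 53 intervals each. They were followed by Gm36448 to Dad1 with 51, Uaca to Tle3 with 46, Gadd45g to Diras2 with 40, Myc to Gsdmc with 40 and Id2 to Rnf144a with 38. Tle3 codes for a Groucho-type corepressor, Myc for a driver of cell growth and Id2 for an inhibitor of E proteins that natural killer and innate lymphoid cells require. The gap from Gm36448 to Dad1 is the T cell receptor alpha locus, whose segments are annotated apart from protein-coding genes and whose DNA is cut and partly lost in thymocytes. Some 51 of the 56 intervals within 100 kb of a receptor segment lay there, and copy number there was not measured. Neighbours were farther apart than elsewhere: 44.8% of desert intervals had another tested interval within 1 kb, against 60.5% of all tested intervals.

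**Figure D1:**
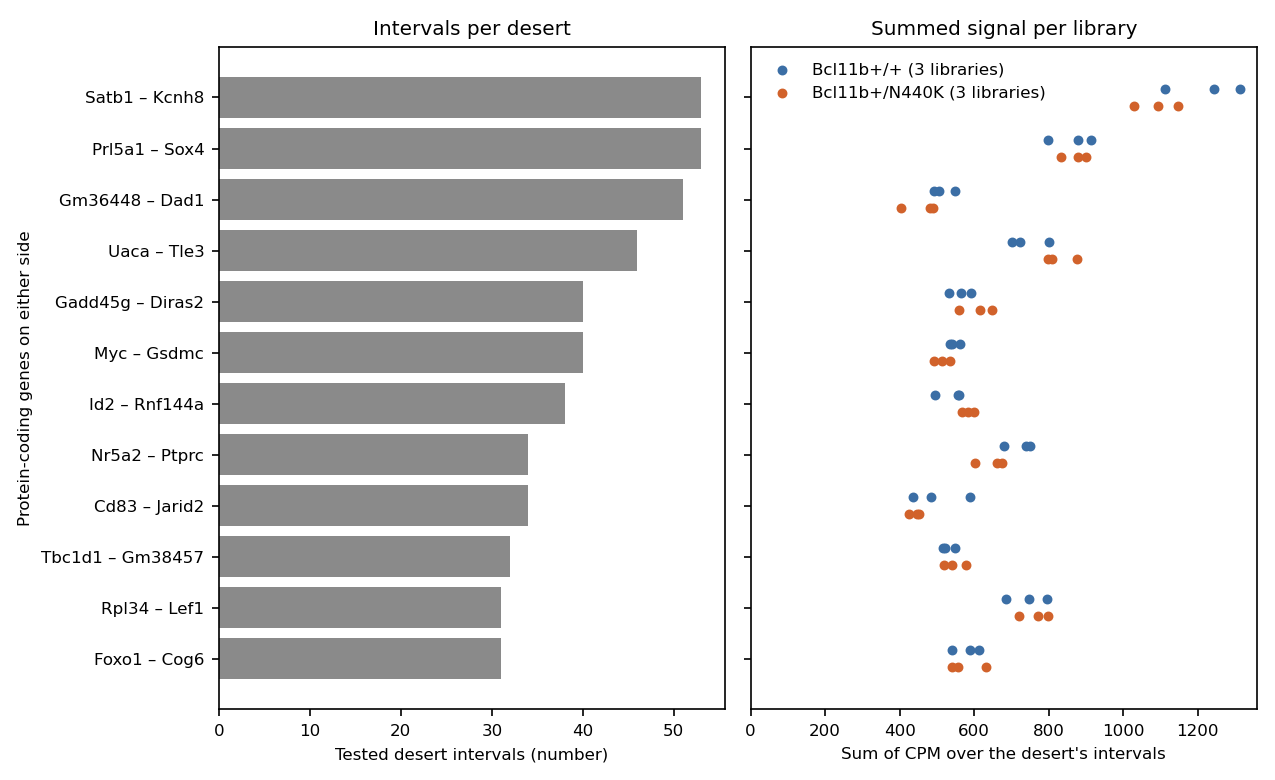
The 12 deserts with the most tested intervals, named by the protein-coding genes on either side. Left, number of intervals, with 53 in the Satb1 and Sox4 deserts. Right, CPM summed over these intervals, 1 point per library, blue for the 3 wild type and orange for the 3 N440K libraries; in 8 of the 12 deserts, the Satb1 desert included, the colours overlap, and in 4 they do not, with N440K lower in the Dad1, Myc and Ptprc deserts and higher in the Id2 desert.

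Summed signal overlapped between the genotypes in 8 of the 12 densest deserts. It did not in those of Dad1, Myc and Ptprc, at 89.0%, 94.0% and 89.4% of wild type, nor in that of Id2, at 109%. The share of sums without overlap over all 348 deserts is not given here, so this count is a description. Of single tested intervals, 17.3% were without overlap. The sums in the Satb1 desert were 1314, 1113 and 1244 CPM in the wild type replicates and 1146, 1029 and 1095 CPM in the N440K replicates, 89.1% of wild type, with overlap between the groups. Of its 53 intervals 37 were negative, with 1 called, the Gm41600 interval above. The Sox4 desert had 880, 799 and 914 CPM in the wild type replicates and 900, 834 and 880 CPM in the N440K replicates, 100.8% of wild type. The Ptprc desert had 750, 679 and 739 CPM in the wild type replicates and 661, 603 and 674 CPM in the N440K replicates, and 26 of its 34 intervals were negative. None was called by edgeR, DESeq2 or limma voom, and 8 had an unadjusted p below 0.05 by edgeR. Over the 72 deserts with 10 or more intervals, the log2 ratio of N440K to wild type sums had a median of -0.01 and ran from -1.05 to 0.71.

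Genes with known roles in T cells flanked many of the well-filled deserts. Of 27 T cell regulators, 15 flanked a desert with tested intervals, 391 intervals in all, with 1 lower and 2 higher in N440K (0.767%, against 1.14% of all tested intervals) and a median log2 fold change of -0.04. Besides the Satb1 interval these were an interval in the desert of Bcl6, the gene of a transcriptional repressor that T follicular helper cells require, and one in the Id2 desert. The Bcl6 interval had 17.3, 20.2 and 17.6 CPM in the wild type replicates and 27.7, 30.5 and 36.4 CPM in the N440K replicates, a log2 fold change of 0.77, with an SE of 0.19 (edgeR adjusted p = 0.0268), with no overlap. The 19 intervals in the desert of Gata3, a regulator of T cell commitment, summed to 401.5 ± 46.2 CPM in the wild type replicates and 364.5 ± 15.5 CPM in the N440K replicates (SD, n = 3), within the spread, with none called and 2 at an unadjusted p below 0.05 by edgeR. The strongest of them lay 261.5 kb from the gene and had 82.0 and 80.9 CPM. The 31 intervals of the Lef1 desert had sums of 741.9 ± 54.8 and 763.1 ± 39.1 CPM (SD, n = 3), again with none called and 1 at an unadjusted p below 0.05 by edgeR.

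The other lists were thinly represented. Of 21 T cell surface and signalling genes, 5 flanked deserts, with 92 intervals and none called by edgeR, where 1.14% of all tested intervals were. These were Ptprc, Btg1, the nuclear factor kappa B inhibitor Tnfaip3, the chemokine receptor Cxcr4 and the egress receptor S1pr1. By edgeR's unadjusted p, 15 of the 92 (16.3%) and 45 of the 391 (11.5%) were below 0.05, against 12.7% of all tested. Of 12 early progenitor regulators, 4 flanked deserts, namely Bcl11a, Kit, Meis1 and Mycn, with 8 intervals, of which none was called and 1 had an unadjusted p below 0.05 by edgeR. The strongest interval between Bcl11a, the paralog of Bcl11b, and Fancl lay 176.9 kb from Fancl and farther from Bcl11a. It had 19.2, 14.8 and 17.2 CPM in the wild type replicates and 10.5, 12.8 and 8.33 CPM in the N440K replicates, without overlap (edgeR adjusted p = 0.201). Of 23 neuronal adhesion and guidance genes, 4 flanked deserts with 9 intervals, of which 1 was lower. It lay between the ephrin receptor gene Epha7 and Map3k7, 139.4 kb from Map3k7 and farther from Epha7.

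Between the genotypes, 53 of the 2370 desert intervals differed (2.24%) at an adjusted p under 0.05 by edgeR, with the adjustment over the whole table, 33 lower and 20 higher in N440K. Of all tested intervals 1.14% were called, so the desert share lay above the background, by a difference that was not tested. By direction, 1.39% of desert intervals were lower against 0.681% of all, and 0.844% were higher against 0.46% of all. At an unadjusted p below 0.05 there were 443 desert intervals (18.7%), against 12.7% of all tested. Wild type and N440K values were fully apart at 484 desert intervals (20.4%), against 17.3% of all, and at 33 of the 33 losses and 17 of the 20 gains. The median log2 fold change was -0.01 over desert intervals and 0.00 over all.

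The count of calls depended on the tool and the libraries. DESeq2 called 3 desert intervals (0.127%), against 0.0951% of all tested, and limma voom called 27 (1.14%), against 0.504%, with 13 lower and 14 higher. Of the 14 higher by limma voom, 3 lay in the chromosome 17 window and are no measure of binding. Leaving out 1 library left 47, 34 or 30 calls without wild type replicate 1, 2 or 3, and 20, 37 or 24 without N440K replicate 1, 2 or 3. In these 6 fits the share called ran from 0.844% to 1.98% of desert intervals and from 0.458% to 0.796% of all tested. Without wild type replicate 1 the calls were 19 lower and 28 higher. The 28 included the 8 intervals of the chromosome 17 window, which are no measure of binding, and so did the share of 1.98%. Whether the balance turned at the other sites was not tested. Of the 18 called intervals that the naming rule picked, 13, 8 and 11 stayed called without wild type replicate 1, 2 and 3, and 10, 9 and 9 without N440K replicate 1, 2 and 3. Called intervals were also not independent, since 7 of the 53 began within 1 kb of another called one.

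**Figure D2:**
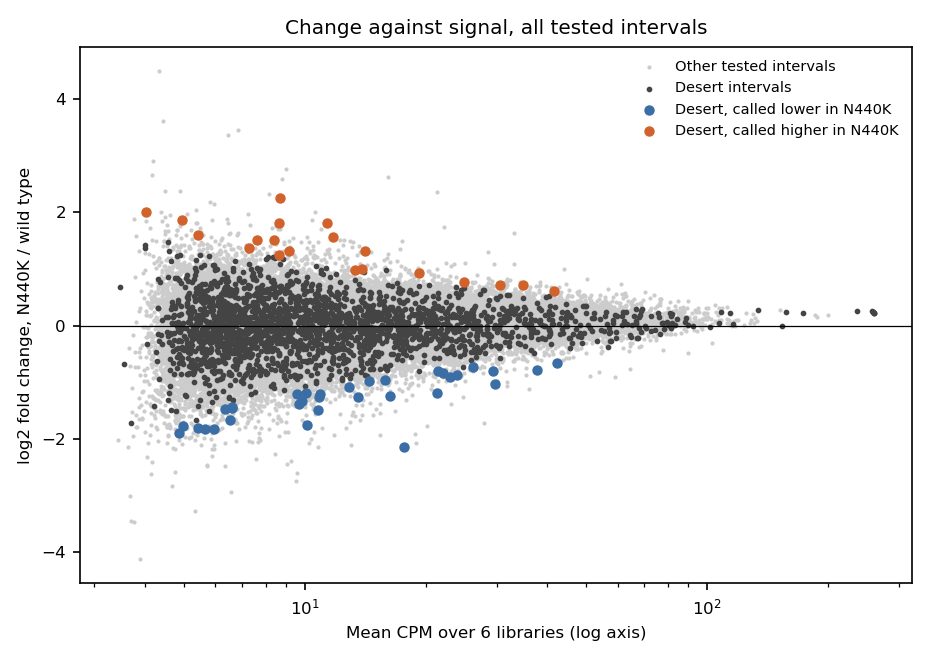
Log2 fold change of N440K over wild type (vertical axis) against mean CPM over the 6 libraries (log axis) for every tested interval. Light points are other intervals, dark points desert intervals, blue and orange points the 33 desert intervals called lower and the 20 called higher. Calls occur at low and at middle signal, and the strongest desert intervals sit near 0. The 8 strongest, at 0.22 to 0.26, are those of the chromosome 17 window and are no measure of binding.

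The lower calls had a median wild type level of 15.9 CPM and a median fold of 2.38, and the higher calls 5.29 CPM and 2.53. The wild type level is part of the fold that sorted the calls, so this gap in level is a description and no result. Split by mean signal of all tested intervals into 4 equal groups, the share called among desert intervals went from 1.71% in the weakest group through 2.47% and 2.06% to 2.94% in the strongest. Over all tested intervals it was 1.06%, 1.18%, 1.20% and 1.12%.

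By distance, 1.02% of tested intervals inside protein-coding genes were called, 0.928% of those outside within 10 kb, 1.32% from 10 to 50 kb and 1.76% from 50 to 100 kb. In deserts the share was 1.99% from 100 to 150 kb, 2.15% from 150 to 200 kb, 2.99% from 200 to 300 kb, 2.11% from 300 to 500 kb and 1.85% of the 108 intervals beyond 500 kb. Calls beyond 500 kb numbered 2, and these shares were not tested against each other. Nearest the limit, the intervals just inside, near Asb1 and Runx1, had wild type levels of 48.4 and 8.69 CPM, and those just outside, near Supt20, Pabpc2 and Avpr1a, had 9.76, 9.86 and 10.8 CPM. The share of intervals among the strongest 1% was 0.734% inside genes, 1.44% from 50 to 100 kb, 2.69% from 100 to 150 kb and 4.63% beyond 500 kb. Without the windows of very high counts on chromosomes 17 and 2, the last pair fell to 1.77% and 0.98%. The 4 most remote intervals lay 1102.7 to 1955.8 kb from any protein-coding gene, the farthest between Slc39a10 and Tmeff2, at 8.24 CPM in the wild type replicates and 7.96 CPM in N440K thymocytes; edgeR called none of the 4, and 1 had an unadjusted p below 0.05. Of desert intervals, 16 of the 753 inside a noncoding gene (2.12%) and 37 of the 1617 outside one (2.29%) were called.

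**Figure D3:**
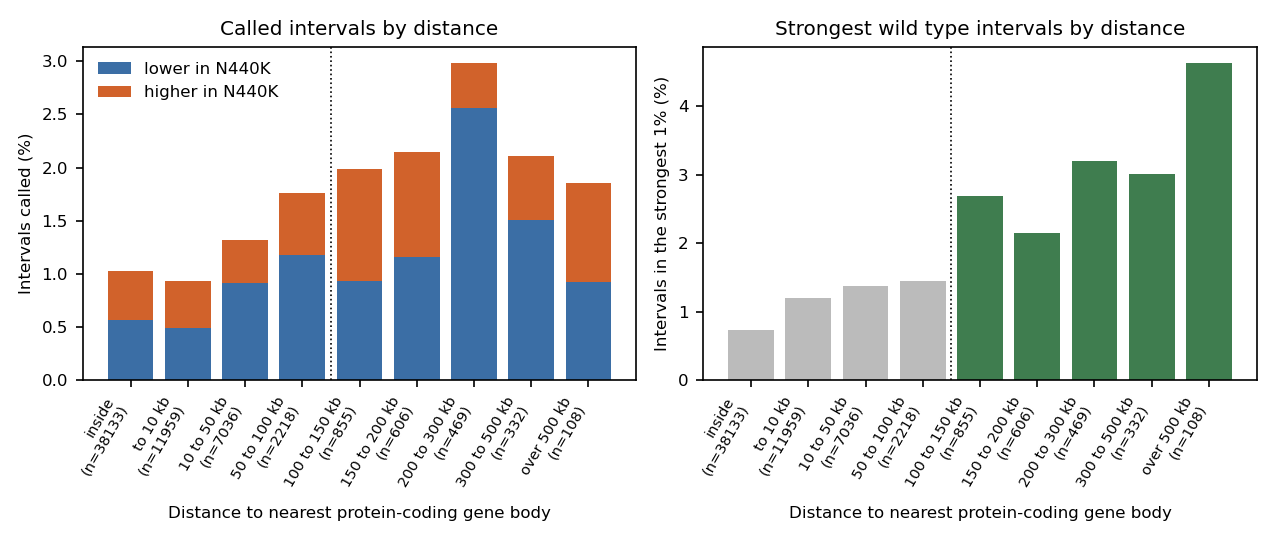
Tested intervals by distance from the nearest protein-coding gene body, with the number of intervals under each bar; the dotted line is the 100 kb limit. Left, percent called lower (blue) and higher (orange) in N440K, from 1.02% inside genes to 2.99% at 200 to 300 kb. Right, percent among the strongest 1% by wild type level, green for deserts and grey for the rest, from 0.734% inside genes to 4.63% beyond 500 kb, where all but 1 of the intervals counted lie in the chromosome 2 window.

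The largest loss lay between 1500009L16Rik and Nuak1, a gene of an AMPK-related kinase. The interval chr10:84111576-84111776, 259.2 kb from Nuak1, had 25.4, 32.5 and 28.3 CPM in the wild type replicates and 5.54, 8.54 and 5.73 CPM in the N440K replicates. Every wild type library was far above every N440K library. Its log2 fold change was -2.14, with an SE of 0.25 (edgeR adjusted p = 7.39e-08), and it was called in each of the 15 other fits, DESeq2 and limma voom included. The neighbouring interval starting at 84111255 fell by 1.21 on the log2 scale (edgeR adjusted p = 0.0328).

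The other losses with the smallest p came from stronger sites. Between Tmx1 and Frmd6, chr12:70656852-70657052 had 38.4, 42.0 and 39.1 CPM in the wild type replicates and 19.4, 24.4 and 15.6 CPM in the N440K replicates. The wild type libraries were close together and all above the N440K ones, with a log2 fold change of -1.02, with an SE of 0.18 (edgeR adjusted p = 0.000610). Between Insc and Sox6, a SoxD transcription factor gene, chr7:115322112-115322312 had 34.7, 32.9 and 21.5 CPM in the wild type replicates and 13.8, 14.03 and 10.9 CPM in the N440K replicates, without overlap. Its log2 fold change was -1.18, with an SE of 0.22 (edgeR adjusted p = 0.00137).

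The other large losses started from lower levels. At chr2:178598490-178598690 near Cdh26, wild type libraries had 13.6, 16.5 and 16.7 CPM and N440K libraries 8.86, 1.83 and 3.12 CPM, with N440K replicate 1 well above its fellows (log2 fold change -1.75; edgeR adjusted p = 0.00179). At chr14:53830906-53831106, inside the T cell receptor alpha locus, they had 8.05, 10.7 and 11.2 against 3.32, 1.83 and 4.16 CPM (log2 fold change -1.66; edgeR adjusted p = 0.0158). At chr4:31823954-31824154, between Epha7 and Map3k7 and 139.4 kb from Map3k7, they had 7.44, 10.3 and 7.73 against 2.77, 1.83 and 2.60 CPM (log2 fold change -1.80; edgeR adjusted p = 0.0192). In all 3 the genotypes were apart. Losses near Mki67, Gm6657, Prok2 and Spry2 had log2 fold changes of -1.77 to -1.90, from wild type means of 7.69 to 9.37 CPM.

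Of the 20 gains, 15 had a wild type mean below 10 CPM. The smallest p belonged to chr7:125190184-125190384, 178.6 kb from 4930571K23Rik, with 6.82, 4.12 and 4.72 CPM in the wild type replicates and 17.7, 9.76 and 24.98 CPM in the N440K replicates. The groups were apart, with N440K replicate 3 far above replicate 2, and the log2 fold change was 1.80, with an SE of 0.32 (edgeR adjusted p = 0.000428). Between Moxd1 and Ccn2, a gene of a secreted matrix protein, chr10:24459139-24459339 had 7.44, 6.999 and 3.86 CPM in the wild type replicates and the same N440K values as the former, with a log2 fold change of 1.56, with an SE of 0.31 (edgeR adjusted p = 0.00246). The counts behind both were 32, 16 and 48 reads in N440K replicates 1, 2 and 3, and no other tested interval had this trio.

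The largest gain lay in the Id2 desert, at chr12:26145335-26145535 inside the noncoding gene Gm29687. Wild type libraries had 8.67, 1.65 and 0 CPM (14, 4 and 0 reads) and N440K libraries 17.7, 12.2 and 11.97 CPM (32, 20 and 23 reads). The groups did not overlap, but wild type replicate 1 stood apart from its fellows. The log2 fold change was 2.25, with an SE of 0.43 (edgeR adjusted p = 0.00179), and DESeq2 gave an adjusted p of 1.00. Gains near Maip1, Trib2, Ufm1, Bmp7 and Trps1 had log2 fold changes of 1.52 to 2.01, from wild type means of 1.60 to 4.27 CPM, with no overlap between the groups.

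**Figure D4:**
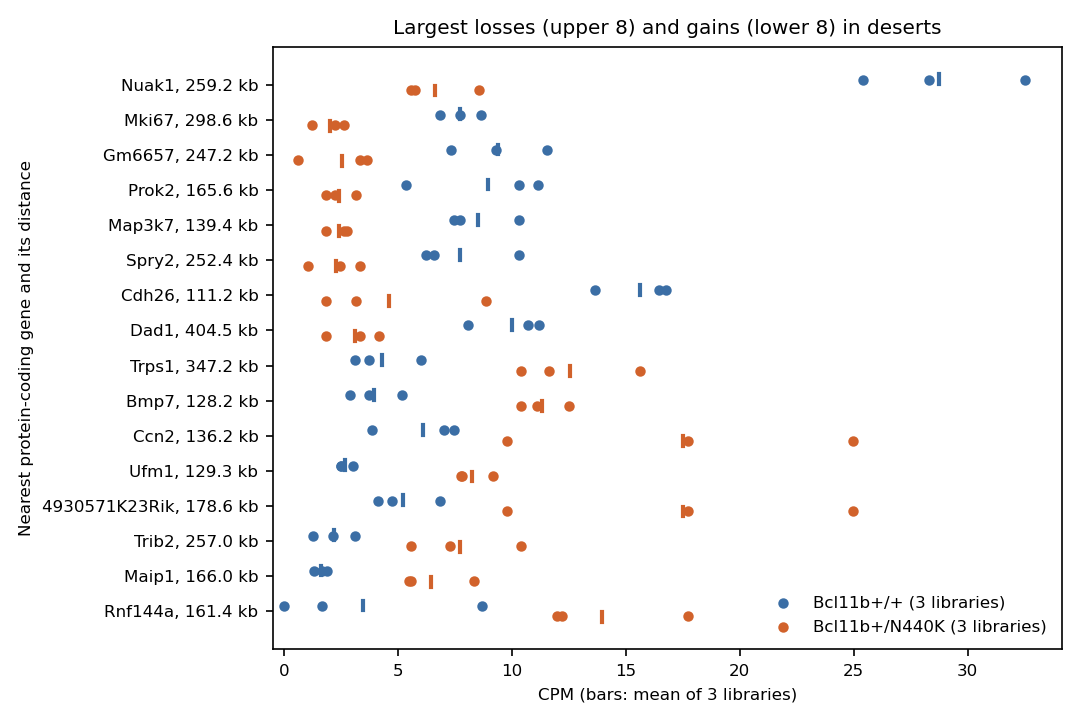
CPM in each library for the 8 largest losses (upper rows) and the 8 largest gains (lower rows) among called desert intervals whose genotypes did not overlap, labelled by the nearest protein-coding gene and the distance to it. Points are libraries, blue for wild type and orange for N440K, and short bars are means of 3; the losses run from 28.8 to 6.60 CPM at Nuak1, and the gains start at wild type means of 1.60 to 6.10 CPM.

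Calls lay in a minority of the deserts, and their direction within a desert can be compared only where it held 2 or more. The 53 calls lay in 36 of the 348 deserts. In 11 deserts 2 or more intervals were called, 28 calls in all, and in each of the 11 every call had the same direction, 8 deserts lower and 3 higher. Chromosome 7 held 9 of them among its 36 desert intervals (25%), 8 lower and 1 higher, where 1.43% of all its tested intervals were called. Chromosome 12 held 9 among 124 (7.26%), where 3.13% of all its tested intervals were called, and 1 of these lay 73.8 kb from the left-out window around Bcl11b. Chromosomes 13, 9, 18, 8 and 19 had 262, 173, 109, 94 and 40 desert intervals and no call by edgeR, DESeq2 or limma voom. By edgeR, 0.905%, 0.777%, 0.67%, 0.936% and 1.27% of all tested intervals on these chromosomes, in that order, were called. At such shares, sets of this size would hold few calls, and the lack of calls was not tested. Of their desert intervals, 39, 27, 19, 12 and 7 had an unadjusted p below 0.05 by edgeR, where 12.7% of all tested intervals did. Intervals of 1 desert are not independent measurements.

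In the gap between Insc and Sox6 all 11 desert intervals were negative in log2 fold change, and 4 of them were called lower. The summed signal was 147.5, 127.2 and 136.9 CPM in the wild type replicates and 62.0, 77.5 and 58.8 CPM in the N440K replicates, 48.2% of wild type. Every N440K library was near the same level, well below every wild type library. The lower signal went on past the desert's edges: the other tested intervals of the gap, nearer to a gene, numbered 2, both called lower, and all 7 intervals inside Sox6 were negative, with 1 called.

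In the gap between Ndfip2, an adaptor of ubiquitin ligases, and Spry2, an inhibitor of receptor tyrosine kinase signalling, all 14 desert intervals were negative and 4 were called lower. The sums were 171.6, 172.5 and 204.3 CPM in the wild type replicates and 82.5, 115.3 and 115.5 CPM in the N440K replicates, 57.1% of wild type and far apart. The strongest of the called intervals, 223.2 kb from Ndfip2, had 31.6, 23.5 and 37.3 against 14.95, 22.6 and 13.5 CPM, where wild type replicate 2 and N440K replicate 2 nearly met. All 5 intervals inside Spry2 were negative, with a median of -0.84 and none called, while the 3 inside Ndfip2 had a median of 0.12.

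The other deserts with repeated losses held fewer intervals. All 4 of the Nuak1 desert were negative, with sums of 58.9, 71.6 and 67.4 against 16.6, 28.1 and 26.0 CPM, 35.7% of wild type, and the 4 intervals inside Nuak1 were negative too, with 1 called. All 6 between Tmx1 and Frmd6 were negative, at 57.4% of wild type, whereas the 11 inside Frmd6 had a median of -0.07. All 4 between Wdr11 and Fgfr2 were negative, with sums of 76.8, 42.8 and 43.4 against 27.1, 26.2 and 22.9 CPM, where wild type replicate 1 was far above its fellows. Between Trib2 and Lpin1, 12 of 19 were negative and 3 were called. Nearer to the genes, 4 of the 5 other intervals of this gap were positive, while the medians inside Trib2 and Lpin1 were -0.18 and -0.15. Between Gm5148 and Ankrd50, 21 of 29 were negative and 2 were called, and the sums of the genotypes overlapped. Of the 24 other intervals of that gap, 17 were positive, with a median of 0.22, and the 3 inside Ankrd50 had a median of -0.01. Between Mki67, the gene of a proliferation marker, and the DNA repair gene Mgmt, the 2 desert intervals were neighbours and both were called.

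Gains were repeated in 3 deserts. Between Pmp22 and Gm29958 all 9 desert intervals were positive and 3 were called higher, with sums of 122.7, 113.6 and 128.8 CPM in the wild type replicates and 211.5, 161.7 and 196.2 CPM in the N440K replicates, 156% of wild type and without overlap. The 2 intervals inside Pmp22 were negative. Between Csmd3 and Trps1, a GATA-type repressor gene, 14 of 15 were positive and 2 were called, with sums of 174.7, 99.6 and 85.8 against 189.4, 178.8 and 221.2 CPM. Wild type replicate 1 was close to the N440K libraries there and far above the other wild type libraries. The 14 intervals inside Trps1 had a median of 0.30, with 13 positive and none called. Between Ufm1 and Trpc4 all 4 were positive and 2 were called, with sums of 19.8, 16.1 and 21.5 against 40.4, 38.4 and 43.2 CPM, 213% of wild type.

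**Figure D5:**
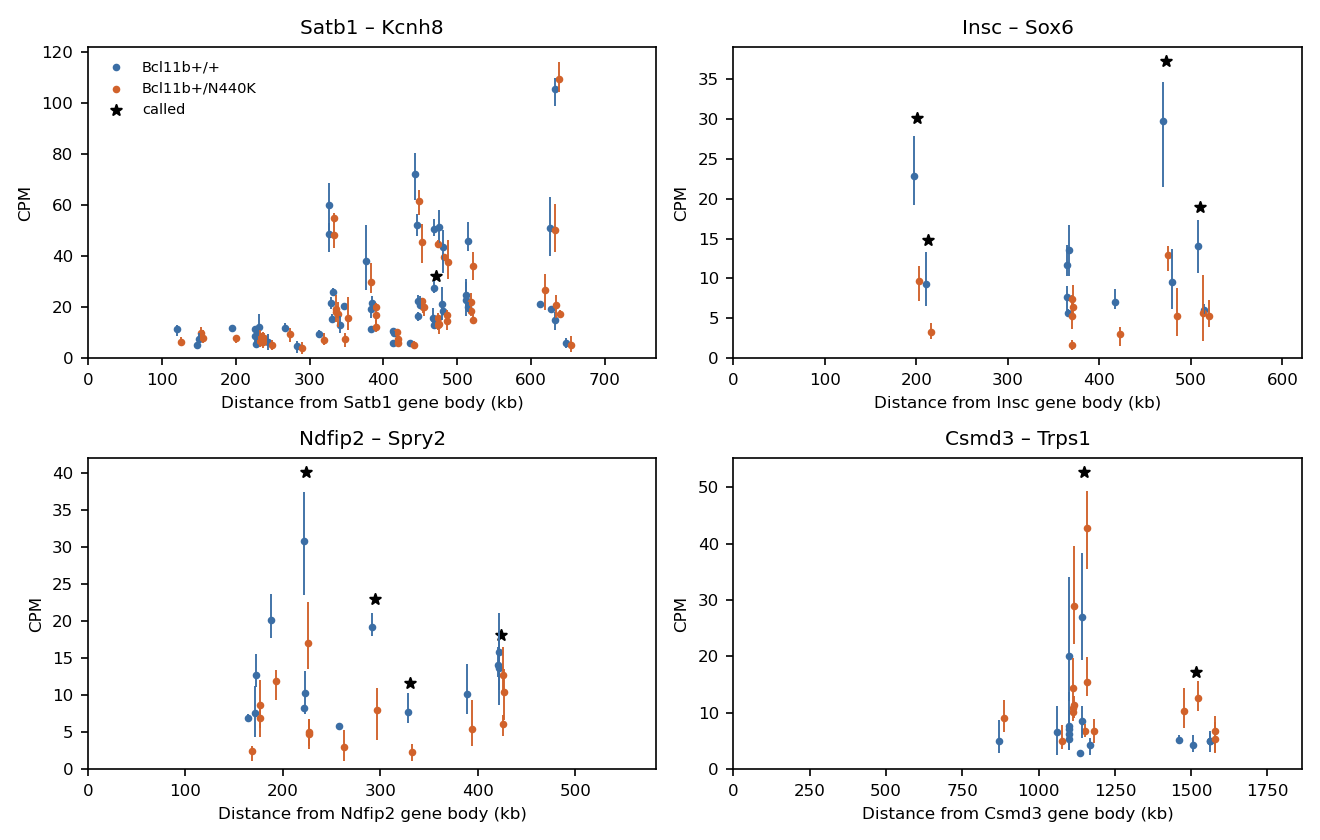
Wild type (blue) and N440K (orange, shifted slightly to the right) signal of each desert interval in 4 deserts, against its distance from the gene on the left. Points are means of 3 libraries, vertical lines run from the lowest to the highest library, and a star marks a called interval. In the Insc to Sox6 and Ndfip2 to Spry2 deserts all 11 and all 14 intervals are lower in N440K, in the Csmd3 to Trps1 desert 14 of 15 are higher, and in the Satb1 to Kcnh8 desert 37 of 53 are lower with 1 called.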

How the data were processed

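Bcl11b ChIP-seq was measured in thymocytes, with 3 libraries of Bcl11b+/+ and 3 of Bcl11b+/N440K; the 2 wild type inputs were not analysed here. Tools named in the submitters' processing notes, without their roles, were edgeR 3.38.2, MACS2, bedtools, SAMtools 1.9, Bowtie2 2.3.5 and fastp 0.20.0, on mm10; the sources used here do not say if peaks were called per library. The authors deposited raw read counts in 93708 intervals of equal length, and CPM values for 63098 of them, the authors' normalisation being 1 constant per library. Dividing the CPM by 1 read's worth gave whole reads for 100% of values (tolerance 0.01), and the intervals kept equalled those of filterByExpr. Removal of duplicate reads, if done, could cap high counts.

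Counts were filtered with filterByExpr, scaled with TMM and fitted over the whole table in edgeR 4.0.16 (R 4.3.3) by the quasi-likelihood test, two-sided, with genotype as the only term, Benjamini-Hochberg adjustment and a threshold of 0.05; only desert rows were read out. The SE is the log2 fold change divided by the square root of F. The script was tested on simulated data. Scaling sets the log ratios near 0, so a change shared by all sites cannot be seen. Gene bodies came from RefSeq, GRCm38.p6. Chi-square per degree of freedom found no library to be a copy of another. The members, the gene lists and the naming rule were chosen with earlier results of these data known. The rule names the 10 strongest intervals, the 8 largest changes each way without overlap, the 3 smallest p each way, the 4 farthest, the strongest of each of the 6 densest deserts, up to 3 per gene list and the 3 either side of the limit. Other intervals named were chosen after their values were seen. One interval that the rule names is not reported here. No genome was used, so words were searched in promoter windows only. Alternatives were DESeq2 1.42.0, limma 3.58.1 voom, other scalings, filters, thresholds, distances and gene types, a replicate block, and leaving out each library.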

Additional observations from a re-analysis of the deposited data

How the results depend on the processing

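Of 2370 desert intervals, 53 were called, 33 lower and 20 higher. DESeq2 called 3 (2 lower, 1 higher) and limma voom 27 (13 lower). Of the higher calls by limma voom, 3 lay in the chromosome 17 window. With intervals at or above the median CPM there were 23 (18 lower, 5 higher), with fewer intervals tested. An adjusted p of 0.01 gave 12 (7 lower, 5 higher). A limit of 50 kb gave 92 (59 lower, 33 higher) of 4588, a limit of 200 kb gave 23 (18 lower, 5 higher) of 909, and 100 kb from genes of any type gave 3 (1 lower, 2 higher) of 128, with a median log2 fold change of 0.20. Leaving out 1 library gave 20 to 47 calls, 12 to 25 lower and 7 to 28 higher, from fewer samples. The 47 and the 28, both without wild type replicate 1, included the 8 intervals of the chromosome 17 window. The median then ran from -0.05 to 0.04. Total counts as library size gave 53, loess offsets 49, no filter on low counts 65 (of 4540, the faint intervals included), no X, Y or unplaced sequences 54, and, added after the data were seen, no high-count windows 54 and no intervals near receptor segments 52. Of the 18 named calls, DESeq2 kept 3 and limma voom 8, and no log2 fold change of a called interval reversed. For the other differences the cause was not tested.

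With the replicate number as a replicate block, 47 were called, 30 lower and 17 higher. Same-numbered libraries of the genotypes had correlations of deviations of -0.004, 0.028 and 0.058, so the numbers were not shown to pair the libraries. Depth limits faint sites: 1 CPM stood for 1.61 to 2.43 reads.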
